A study of Mus musculus with 6 samples.

Results

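Wnt proteins are lipid-modified secreted signals, and the genes described here encode those ligands, the receptors that bind them and the R-spondin system that tunes their reception. Members were found by symbol in the deposited count table, as the numbered Wnt and Fzd genes, Lrp5, Lrp6, Ror1, Ror2, Ryk, Lgr4 to Lgr6 and Rspo1 to Rspo4. The symbols matched 41 of the 43346 genes in the table, and 34 of the 41 had 10 or more counts in at least 3 libraries. Limb bones of 1-day-old mouse pups were compared between 3 Hdac3 CKO libraries and 3 wild type libraries, all of the C57BL/6 strain. Hdac3 CKO stands for a conditional knockout of the histone deacetylase gene Hdac3 that the series labels with PRX1, and the Prx1 enhancer is commonly used to drive Cre recombinase in limb mesenchyme. Bones came from hindlimbs and forearms, were cleaned of soft tissue and were lysed in TRIzol for RNA-seq of mRNA. The labels do not say whether the wild type pups carried Cre or floxed alleles, whether litters were shared or whether pups were pooled, so the tests weigh differences against library-to-library spread that may be technical.

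In the canonical branch of the pathway, a Wnt ligand bound to a Frizzled receptor and the co-receptor Lrp5 or Lrp6 stops the breakdown of beta-catenin, which then enters the nucleus and acts with TCF and LEF factors. In other branches, ligands such as Wnt5a act through Ror2, Ror1 or Ryk without beta-catenin and influence cell shape, polarity and movement. R-spondins bind Lgr receptors and so keep Frizzled and Lrp proteins at the cell surface. In the skeleton the pathway is known for its role in bone formation, and human LRP5 variants are a well-known cause of low or high bone mass.

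In Hdac3 CKO bones 1 of the 34 genes rose and 1 fell. The receptor gene Ror2 rose 2.13-fold and the ligand gene Wnt2 fell to 0.183 of its wild type level, each at an adjusted p under 0.05 in edgeR's quasi-likelihood test. The other 32 did not pass the test, with adjusted p-values of 0.0865 to 0.999. Across all 20210 genes tested, 1.18% passed, 0.703% upward and 0.475% downward, so that 59.7% of the calls were upward. Scaling by library totals alone gave an upward share of 32.6%. The median log2 fold change of the 34 genes was 0.060, beside 0.0010 over all tested genes, with 19 above 0 and 15 below. The median size of the change regardless of sign was 0.31, beside 0.23 over all tested genes. In 10 of the 34 genes the Hdac3 CKO libraries all lay on one side of the wild type libraries, which is 29.4%, beside 22.5% of all tested genes. Of the 10, Wnt10a reached 10 counts in wild type libraries only, which nearly fixed its lack of overlap. Without it the figure was 9 of 33, or 27.3%.

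Library totals were 43389262 to 46926855 counts in Hdac3 CKO and 46156691 to 50927978 in wild type. Hdac3 had 28.3 to 31.8 CPM in Hdac3 CKO libraries, against 47.4 to 50.2 CPM in wild type libraries, where CPM is the usual depth-scaled count with TMM library sizes, and it fell (adjusted p of 0.027 in edgeR). All 8 genes of an osteoblast marker list were measured, and their summed level was 39290 to 58760 CPM in Hdac3 CKO, against 24810 to 33390 CPM in wild type. Most of that sum was the collagen gene Col1a1, at 35980 to 55650 CPM in Hdac3 CKO and 23520 to 31100 CPM in wild type, and of the 8 genes 5 had log2 fold changes above 0 and 3 below. The samples also held RNA of other tissues, since 11 of 11 cartilage, 10 of 10 skeletal muscle, 6 of 6 endothelial, 5 of 5 Schwann cell, 5 of 5 erythroid and 7 of 8 epidermal markers passed the filter on low counts, and no marker was at 0 in every library. The erythroid list summed to 8.34 to 19.6 CPM in Hdac3 CKO, against 21.7 to 32.9 CPM in wild type. Replicate 3 of each genotype stood apart in cartilage RNA, at 17100 CPM summed over the cartilage list in Hdac3 CKO replicate 3, against 1922 and 2629 CPM in the other Hdac3 CKO libraries. The sum was 9152 CPM in wild type replicate 3, against 2144 and 2354 CPM in the other wild type libraries. Hdac3 CKO replicate 1 stood apart in muscle RNA, at 52370 CPM summed over the muscle list, against 31390 and 33180 CPM in the other Hdac3 CKO libraries and 28070 to 34270 CPM in wild type. With replicate 3 of both genotypes left out, 0 genes passed in edgeR and 2309 had an unadjusted p under 0.05, and the log2 fold change was 1.20 for Ror2 and -2.54 for Wnt2.

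Levels of different genes were set side by side on the RPKM scale of the deposited tables, which divides by gene length. Libraries are scaled otherwise there than in CPM, so changes between genotypes are read from the fold changes of the count fit. Of the ligands, Wnt9a, a gene of forming joints, averaged 5.89 ± 1.35 RPKM in Hdac3 CKO and 4.93 ± 0.49 RPKM in wild type (SD, n = 3 each). Wnt4 averaged 5.59 RPKM in Hdac3 CKO and 4.70 RPKM in wild type, and Wnt5a 3.57 RPKM in Hdac3 CKO and 4.80 RPKM in wild type. Wnt5b, Wnt10b and Wnt11 lay between 2.47 and 4.06 RPKM in both genotypes, and Wnt2b stood near 1 with 1.14 RPKM in Hdac3 CKO and 0.995 RPKM in wild type. The remaining ligands at the count floor, Wnt16, Wnt2, Wnt6, Wnt7b and Wnt10a, averaged under 1 RPKM. The most abundant receptor genes stood above every ligand gene in both genotypes. Ryk, a Wnt-binding receptor with an inactive kinase domain, averaged 13.0 RPKM in Hdac3 CKO and 14.3 RPKM in wild type, and Fzd2, Lrp5, Lrp6, Fzd4, Fzd7 and Ror2 averaged 8.36 to 12.1 RPKM in Hdac3 CKO. In wild type the first 5 of these averaged 9.16 to 10.2 RPKM, and Ror2 averaged 4.33 RPKM.

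**Figure D1:**
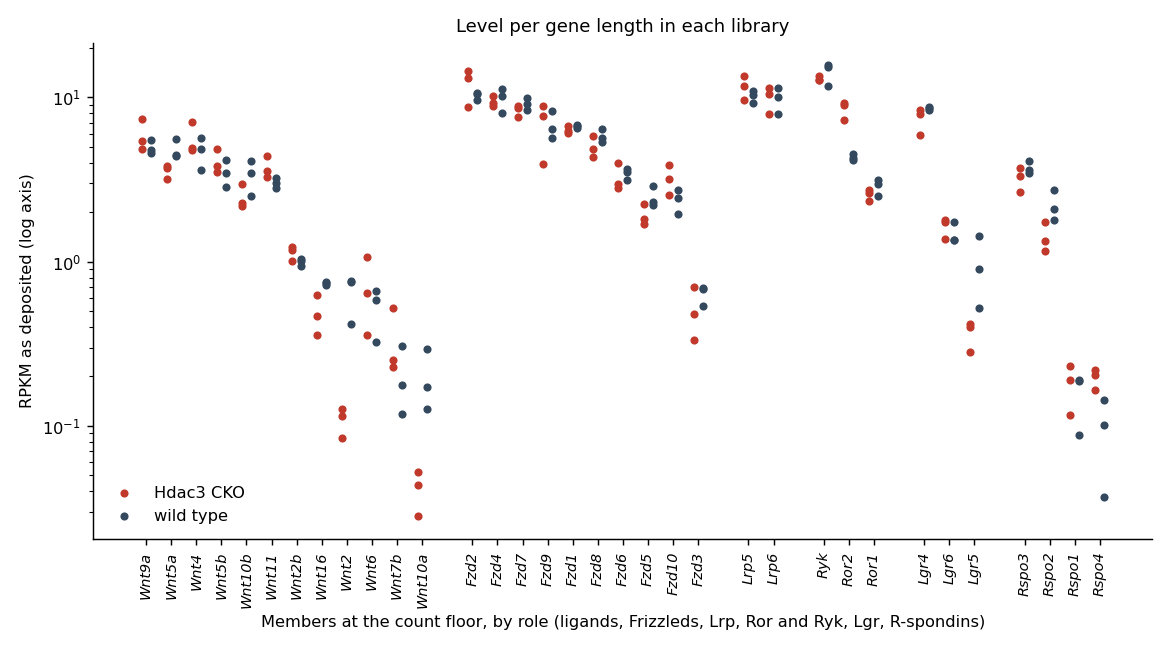
RPKM as deposited (log axis) in each of 3 Hdac3 CKO libraries (red, left of each pair) and 3 wild type libraries (dark, right of each pair) for the 34 genes at the count floor, grouped by role. Wnt2 and Wnt10a are the ligands whose red points lie farthest below the dark ones, and the points of Ror2 lie above, at a mean of 8.47 RPKM in Hdac3 CKO and 4.33 RPKM in wild type.

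The stretches just upstream of the annotated starts of Ror2 and Wnt2 are shown because these are the genes that passed. They are from RefSeq on GRCm38.p6, written 5′ to 3′ on the reverse strand, and end where the first annotated transcript begins, at chr13:53286125-53286374 for Ror2 and chr6:18030586-18030695 for Wnt2. Capitals mark GC boxes, GGGCGG on either strand.
Ror2: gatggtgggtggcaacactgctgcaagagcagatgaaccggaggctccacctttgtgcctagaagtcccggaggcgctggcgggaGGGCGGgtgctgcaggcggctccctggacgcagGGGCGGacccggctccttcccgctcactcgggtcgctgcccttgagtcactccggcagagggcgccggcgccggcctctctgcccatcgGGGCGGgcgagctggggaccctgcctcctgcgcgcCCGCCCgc
Wnt2: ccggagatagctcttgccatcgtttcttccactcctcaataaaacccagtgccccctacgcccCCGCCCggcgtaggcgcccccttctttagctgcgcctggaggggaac

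The 250 bases of Ror2 were 73.2% G and C, beside a median of 52.4% over the same stretch of 32851 RefSeq promoters, and held 24 CpG dinucleotides and 4 GC boxes. At least 1 GC box was found in 32.7% of those promoters. The 110 bases of Wnt2 were 62.7% G and C and held 8 CpG and 1 GC box. They were set beside the 110 bases of each promoter that begin 250 bases upstream of its RefSeq start. Of those stretches, which leave out the bases nearest the start, 11.6% held a GC box. On neither strand did these windows hold the TATA box TATAAA, found in 12.4% of the 250-base stretches and 5.63% of the 110-base ones. The same held for the CCAAT box, found in 33.9% and 14.9%, and for CTTTGAT, a core of TCF and LEF sites, found in 3.21% and 1.49%. The RefSeq start of Wnt2 lies 140 bases inside the gene's start in the deposited table, and the bases between were not searched. The starts of Ror2 are the same.

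Wnt2, a ligand known for its part in lung and placental development, has its gene on chromosome 6 (ENSMUSG00000010797, 17988940 to 18030585, mm10, reverse strand). It had 41 counts over the 3 Hdac3 CKO libraries, against 275 counts over the 3 wild type libraries. The normalised levels were 0.339, 0.376 and 0.256 CPM in Hdac3 CKO replicates 1 to 3, against 2.29, 1.90 and 1.12 CPM in wild type replicates 1 to 3. All 3 Hdac3 CKO libraries were low, wild type replicate 3 was the lowest of its genotype, and the genotypes did not overlap. The log2 fold change was -2.45 ± 0.39 (SE) and edgeR's adjusted p was 0.0233. Permuting the 6 libraries in full (exact, two-sided) gave p = 0.1, and 3 against 3 can give none smaller. Wnt2 no longer passed when wild type replicate 1 (adjusted p of 0.0821), wild type replicate 2 (0.0760) or Hdac3 CKO replicate 3 (0.0909) was left out, or with the mean of the muscle markers as a covariate (0.0709).

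Wnt2 also marks a class of connective tissue fibroblasts that carry Dpp4 and Pi16, and the levels of 6 genes known from those cells are given beside it. That list was added with earlier results of these data known. Dpp4, a cell surface peptidase, had 2.11, 3.01 and 2.44 CPM in Hdac3 CKO, against 11.4, 12.4 and 8.03 CPM in wild type, and Pi16 averaged 9.11 CPM in Hdac3 CKO and 21.7 CPM in wild type. Both fell, at log2 fold changes of -2.08 ± 0.23 and -1.25 ± 0.19 with adjusted p-values of 0.00796 and 0.0207 in edgeR. Sema3c (-1.10), Cd55 (-1.01), Anxa3 (-0.10) and Bmp7 (0.22) did not pass. The summed level of the list was 85.4 to 156.9 CPM in Hdac3 CKO, against 174.8 to 303.8 CPM in wild type. Sema3c was the largest part of that sum, at 38.1 to 86.8 CPM in Hdac3 CKO and 96.6 to 189.4 CPM in wild type. The part of these cells in the lower Wnt2 level was not tested. In whole bone, fewer cells of a type and less RNA per cell cannot be told apart.

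Wnt2b, the close relative of Wnt2, had 4.70, 5.52 and 5.90 CPM in Hdac3 CKO, against 4.94, 4.01 and 3.99 CPM in wild type, and the genotypes overlapped. Its log2 fold change was 0.32 ± 0.19. Within each library the ratio of Wnt2 to Wnt2b RPKM was 0.114, 0.108 and 0.0686 in Hdac3 CKO, against 0.735, 0.750 and 0.445 in wild type. Wnt2 made up 0.388% of the summed RPKM of all ligands on average in Hdac3 CKO and 2.35% in wild type, so it was a small part of the ligand RNA in both.

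Wnt10a, a ligand of tooth and skin appendage development, had the second largest log2 fold change among the ligands and did not pass the test. It had 7, 6 and 4 counts in Hdac3 CKO, against 22, 42 and 25 counts in wild type, or 0.169, 0.141 and 0.0929 CPM against 0.413, 0.814 and 0.508 CPM. The log2 fold change was -2.09 ± 0.49, with an adjusted p of 0.0865 in edgeR and 0.0350 in DESeq2. The genotypes did not overlap, but Wnt10a reached the count floor through wild type libraries only, which nearly fixed that outcome. Wnt6 lies 6193 bases from Wnt10a on chromosome 1 and differed from it in sign, at 0.52 ± 0.41 with overlapping genotypes. Epidermal markers summed to 17.4, 42.0 and 23.6 CPM in Hdac3 CKO, against 24.3, 9.69 and 9.62 CPM in wild type, with 0 of 7 tested markers passing, and their part in the Wnt10a values was not tested.

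The other 10 ligands at the count floor had log2 fold changes between -0.49 and 0.89 and adjusted p-values of 0.285 to 0.572. Wnt5a, the ligand most closely tied to Ror2, had 32.7, 39.0 and 38.9 CPM in Hdac3 CKO, against 46.0, 48.5 and 41.1 CPM in wild type. Every Hdac3 CKO library lay below every wild type library, but the difference of -0.29 ± 0.13 did not pass (adjusted p of 0.338 in edgeR). Wnt16, known for its part in cortical bone, barely missed overlapping, at 2.03 to 3.65 CPM in Hdac3 CKO and 3.66 to 4.28 CPM in wild type. In the other direction, Wnt4 (0.39) and Wnt11 (0.43) had Hdac3 CKO levels above every wild type level, also by narrow margins. The lowest Hdac3 CKO and the highest wild type levels were 26.84 and 26.43 CPM for Wnt4, and 15.66 and 15.55 CPM for Wnt11. Wnt9a (0.37), Wnt5b (0.35), Wnt10b (-0.30) and Wnt7b (0.89), of which Wnt10b and Wnt7b are known to promote osteoblast formation, had overlapping genotypes. Of these 10, Wnt7b and Wnt6 varied most between libraries of a genotype, with coefficients of variation of 48.3% and 53.0% in Hdac3 CKO and 40.1% and 33.5% in wild type.

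Of the 19 ligand genes, 7 did not reach the floor. Wnt1, whose human variants cause brittle bone disease, came closest, with 6, 14 and 0 counts in Hdac3 CKO and 8, 12 and 9 in wild type, so that 2 libraries had 10 or more. Wnt3 had 16 counts over the 3 Hdac3 CKO libraries and 12 over the 3 wild type libraries, and Wnt8b had 12 in Hdac3 CKO and 9 in wild type. Wnt9b, Wnt7a, Wnt3a and Wnt8a had at most 4 counts in either genotype. No fold change is given for these 7 genes, whose levels were too low at this depth to compare. The 19 ligand genes include 4 pairs that lie within 24328 bases of each other. In the pairs of Wnt3a with Wnt9a and of Wnt10b with Wnt1, 1 gene reached the floor and its neighbour did not, both genes of the pair Wnt9b and Wnt3 were under it, and both of Wnt6 and Wnt10a were above it.

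**Figure D2:**
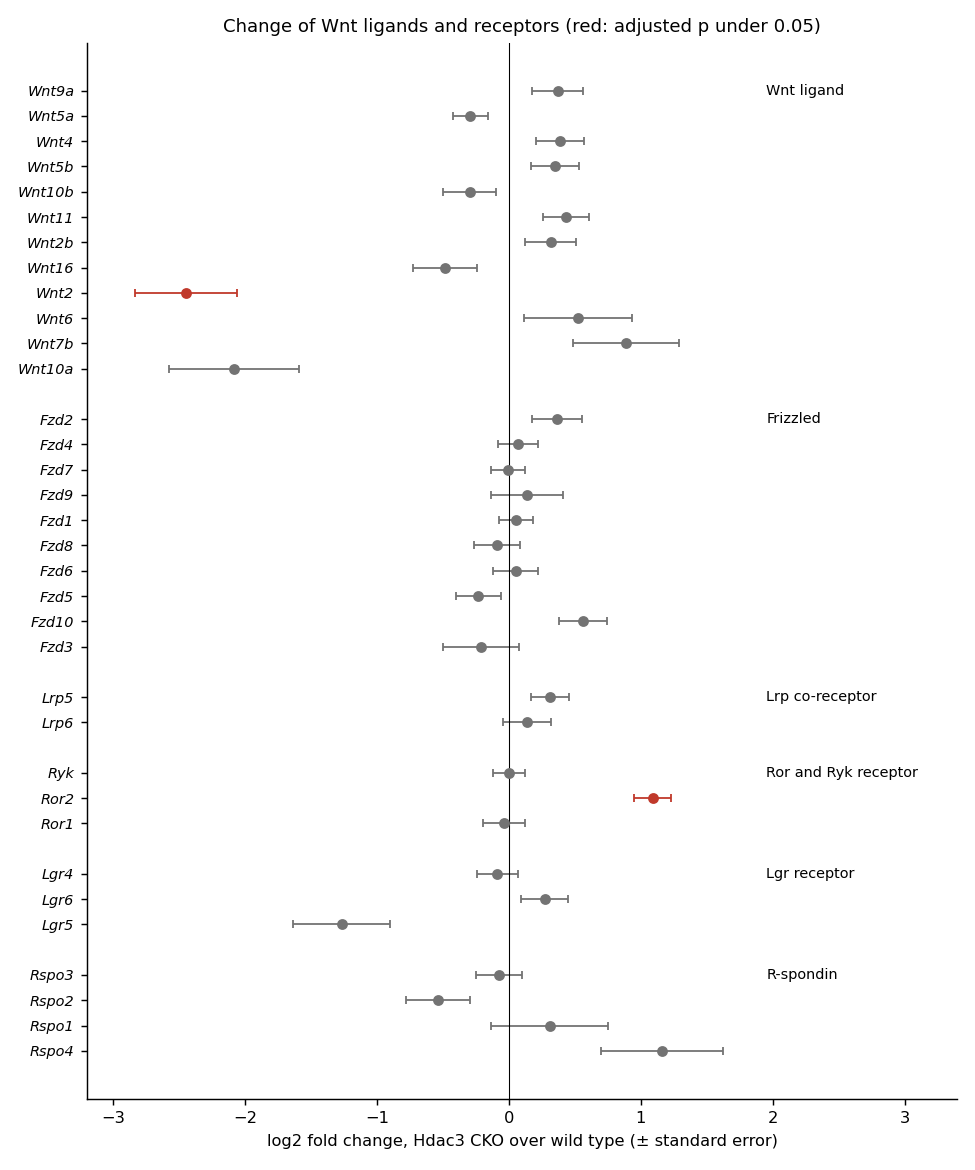
Log2 fold change of Hdac3 CKO over wild type with its standard error (horizontal axis) for the 34 genes at the count floor, grouped by role, with genes at an adjusted p under 0.05 in red. Wnt2 lies at -2.45 and Ror2 at 1.09, Wnt10a and Lgr5 lie below -1 without passing, and the Frizzled genes stay between -0.23 and 0.56.

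All 10 Frizzled genes, which encode the seven-pass receptors of Wnt ligands, were measured and 0 of them passed. DESeq2 and limma-voom also called 0 of them, and 1 of the 10 had an unadjusted p under 0.05 in edgeR, which was Fzd10, where 15% of all tested genes did. Fzd10 had 16.3, 10.9 and 13.9 CPM in Hdac3 CKO, against 8.41, 9.92 and 9.50 CPM in wild type. Its genotypes did not overlap, at 0.56 ± 0.18 with an adjusted p of 0.197. Fzd2, the most abundant Frizzled, had 68.8, 41.9 and 64.3 CPM in Hdac3 CKO, against 51.3, 42.5 and 42.1 CPM in wild type. Hdac3 CKO replicate 2 was below all wild type libraries there, and the difference of 0.36 ± 0.19 had an adjusted p of 0.396. Fzd4, Fzd7, Fzd1, Fzd6, Fzd8 and Fzd9, the last needed for normal bone formation in mice, had log2 fold changes between -0.09 and 0.14. Fzd5 stood at -0.23 and Fzd3, the least abundant at 0.505 RPKM in Hdac3 CKO and 0.637 RPKM in wild type, at -0.21.

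The canonical co-receptors did not pass either. Lrp5 had 170.6, 123.8 and 152.4 CPM in Hdac3 CKO, against 119.3, 112.9 and 127.4 CPM in wild type. Hdac3 CKO replicate 2 lay within the wild type range and the other Hdac3 CKO libraries above it, at 0.31 ± 0.15 (adjusted p of 0.348). Lrp6 had 101.5, 134.7 and 149.1 CPM in Hdac3 CKO, against 131.4, 125.4 and 93.3 CPM in wild type. Hdac3 CKO replicate 1 lay within the wild type range and the others above it, at 0.14 ± 0.18 (adjusted p of 0.7485 in edgeR). The sign was negative when scaled by library totals alone (-0.038).

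Ror2, a receptor tyrosine kinase of the Wnt5a branch whose human variants cause brachydactyly and Robinow syndrome, lies on the reverse strand of chromosome 13 (ENSMUSG00000021464, 53109312 to 53286124, mm10). It had 2114, 2117 and 1773 counts in Hdac3 CKO, against 1253, 1046 and 1128 counts in wild type. The normalised levels were 51.2, 49.7 and 41.2 CPM in Hdac3 CKO, against 23.5, 20.3 and 22.9 CPM in wild type. The lowest Hdac3 CKO library was well above the highest wild type library, and the spread within each genotype was small. The log2 fold change was 1.09 ± 0.14 (SE), edgeR's adjusted p was 0.0140 and the exact permutation p was 0.1. Leaving out wild type replicate 1 (adjusted p of 0.0565) or wild type replicate 2 (0.0634) ended the call.

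The other receptors of this branch, Ror1 and Ryk, did not pass. Ror1 had 17.7, 20.8 and 20.1 CPM in Hdac3 CKO, against 23.8, 19.1 and 17.2 CPM in wild type, a difference of -0.04 ± 0.16 with an adjusted p of 0.934. Ryk averaged 77.7 CPM in both genotypes, with an SD of 2.38 in Hdac3 CKO and 7.00 in wild type. Within each library the ratio of Ror2 to Ror1 RPKM was 3.93, 3.25 and 2.78 in Hdac3 CKO, against 1.34, 1.44 and 1.82 in wild type. Ror2 made up 32.1% to 38.0% of the summed RPKM of the 3 receptors in Hdac3 CKO and 19.0% to 21.9% in wild type.

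Of the osteoblast list given above, only Dmp1 of its 8 genes passed the test. The summed level of the list, mostly Col1a1 (0.75 ± 0.23), was higher in every Hdac3 CKO library. Like Col1a1, Dmp1 (1.14), Ibsp (1.21, adjusted p of 0.057 in edgeR) and Sp7 (0.38) had Hdac3 CKO levels above every wild type level. Alpl (0.18) had overlapping genotypes. Runx2 (-0.44), Bglap2 (-0.42) and Bglap (-0.23) had log2 fold changes below 0, and Runx2 was lower in every Hdac3 CKO library without passing. The tendon list summed to 799 to 1144 CPM in Hdac3 CKO, against 518 to 644 CPM in wild type, with 1 of 4 genes, Thbs4, passing. Thbs4 alone had 582.1 to 859.7 CPM in Hdac3 CKO, against 303.6 to 350.6 CPM in wild type, and Scx (0.38), Tnmd (0.16) and Mkx (-0.51) had overlapping genotypes. The part of these cell types in the higher Ror2 level was not tested. With the mean of the cartilage markers as a covariate both Ror2 and Wnt2 still passed, and with that of the muscle markers Ror2 passed and Wnt2 did not. No covariate was fitted for osteoblast or tendon markers.

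**Figure D3:**
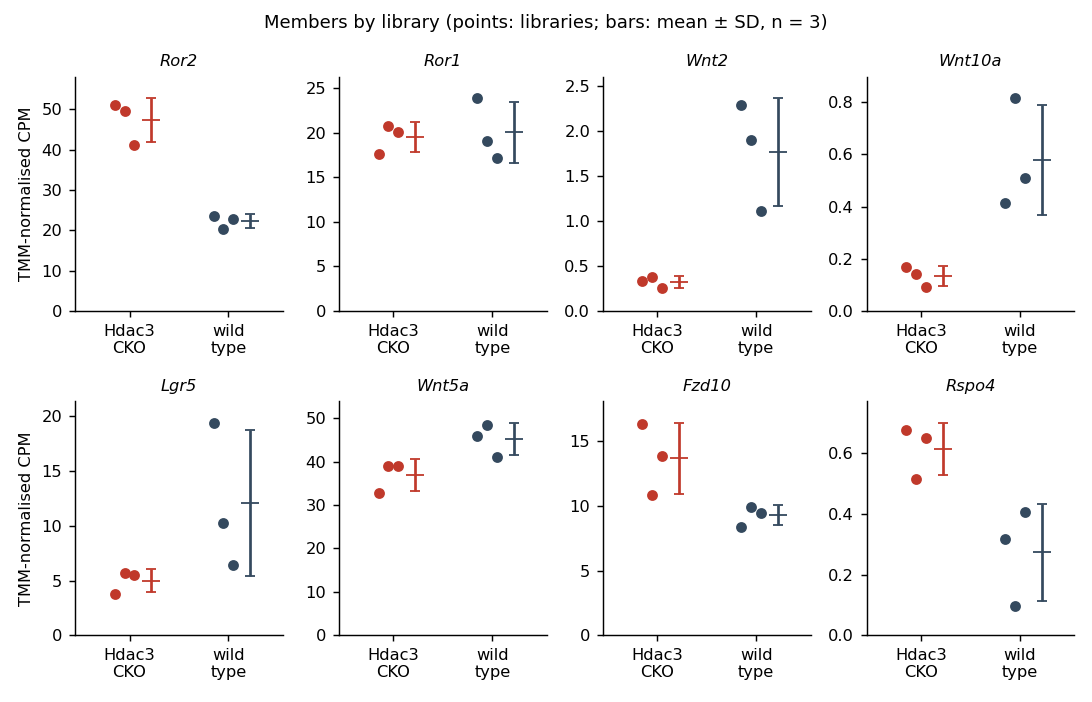
TMM-normalised CPM (vertical axes, from 0) of 8 genes in each library, with 3 Hdac3 CKO libraries (red) left of 3 wild type libraries (dark) and the mean ± SD beside them. Ror2 is at 41.2 to 51.2 CPM in Hdac3 CKO and 20.3 to 23.5 CPM in wild type while Ror1 overlaps, and the wild type points of Lgr5 spread from 6.42 to 19.4 CPM.

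The Lgr receptors bind R-spondins, and Lgr5 is also a known beta-catenin target and stem cell marker. Lgr5 had 3.80, 5.66 and 5.51 CPM in Hdac3 CKO, against 19.4, 10.3 and 6.42 CPM in wild type. Every Hdac3 CKO library was below every wild type library, and wild type replicate 1 was the highest library by far. The log2 fold change of -1.27 ± 0.36 had an adjusted p of 0.155 in edgeR and 0.00824 in DESeq2, and it was -0.74 without wild type replicate 1. Lgr6 had 12.3, 15.6 and 16.5 CPM in Hdac3 CKO, against 12.2, 10.3 and 14.2 CPM in wild type. Its log2 fold change was 0.27 ± 0.18, with an adjusted p of 0.494 in edgeR. Both Lgr6 and Lgr4 (-0.09 ± 0.16) had overlapping genotypes. Lgr4 made up most of the summed Lgr RPKM, 77.9% to 79.6% in Hdac3 CKO and 75.1% to 79.4% in wild type.

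The R-spondin genes encode the secreted ligands of the Lgr receptors. In edgeR, DESeq2 or limma-voom 0 of 4 passed, and 1.18% of all tested genes passed in edgeR. At an unadjusted p under 0.05 in edgeR stood 1 of the 4, beside 15% of all tested genes. That gene was Rspo4, known for its part in nail growth, with 28, 22 and 28 counts in Hdac3 CKO and 17, 5 and 20 counts in wild type. The genotypes did not overlap, at 0.678, 0.517 and 0.651 CPM in Hdac3 CKO, against 0.319, 0.0969 and 0.407 CPM in wild type, with a log2 fold change of 1.16 ± 0.46 and an adjusted p of 0.282. Rspo2, which is needed for limb outgrowth in mice, had 7.53, 5.82 and 5.14 CPM in Hdac3 CKO, against 12.0, 7.69 and 7.14 CPM in wild type. Hdac3 CKO replicate 1 lay above wild type replicate 3, and the difference of -0.54 ± 0.24 had an adjusted p of 0.333. Rspo3, the most abundant, stood at -0.08 ± 0.17, and Rspo1, with 10 to 26 counts a library, at 0.31 ± 0.44.

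Further genes of the pathway were counted from lists drawn up by known role. Together the lists held 66 tested genes besides the members, and they were chosen with earlier results of these data known. Of the 66, 2 rose and 1 fell, which is 4.5% beside 1.18% of all tested genes. Between the genotypes 17 did not overlap, which is 25.8% beside 22.5% of all tested genes. All 3 that passed are known antagonists of Wnt reception. Sfrp4, a secreted protein that binds Wnt ligands, rose to 52.0, 74.6 and 45.3 CPM in Hdac3 CKO, against 12.9, 14.8 and 17.9 CPM in wild type (1.92 ± 0.21, adjusted p of 0.00769 in edgeR). Apcdd1, a membrane inhibitor of Wnt reception, rose to 99.4, 60.5 and 44.0 CPM in Hdac3 CKO, against 12.7, 16.7 and 19.7 CPM in wild type (2.06 ± 0.29, adjusted p of 0.0179). Wif1, which sequesters Wnt ligands, fell to 44.6, 50.2 and 44.5 CPM in Hdac3 CKO, against 78.3, 77.3 and 97.4 CPM in wild type (-0.86 ± 0.14, adjusted p of 0.0236). So 2 of 15 tested antagonist genes rose and 1 fell, beside 0.703% and 0.475% of all tested genes, and 12 did not pass. DESeq2 also called Dkk1 and Dkk2, both lower in Hdac3 CKO, at log2 fold changes of -1.01 and -1.02 in edgeR. Without wild type replicate 1 or 2, only Sfrp4 of these 3 passed in edgeR, and without replicate 3 of either genotype Wif1 did not.

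**Figure D4:**
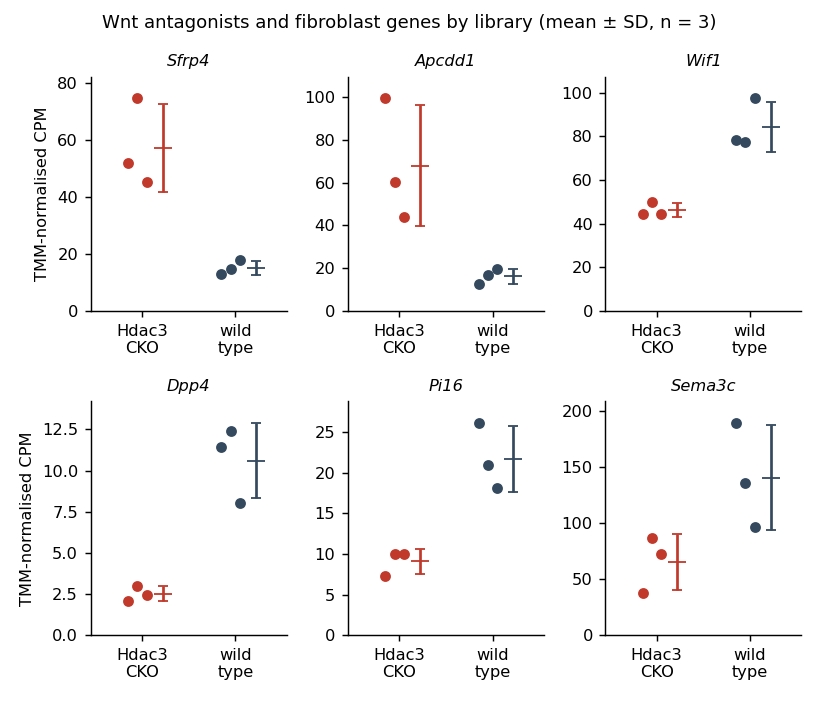
TMM-normalised CPM (vertical axes, from 0) of the antagonist genes Sfrp4, Apcdd1 and Wif1 and the fibroblast genes Dpp4, Pi16 and Sema3c in each library, 3 Hdac3 CKO (red) left of 3 wild type (dark), with the mean ± SD. The genotypes do not overlap in any of the 6 panels, and Sema3c did not pass the test. Cd55, Anxa3 and Bmp7 of the same fibroblast list had overlapping genotypes and are not shown.

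No gene of the other 5 functional lists passed in edgeR or limma-voom with all libraries and the filter on low counts. DESeq2 called Tle2 and Ptk7, and edgeR called Tle2 with no filter on low counts and without Hdac3 CKO replicate 2. At an unadjusted p under 0.05 in edgeR stood 6 of the 49 genes, beside 15% of all tested genes. Of 3 genes that process or release Wnt ligands, Trabd2b, an inhibitor that cleaves Wnt proteins, stood at -0.45 ± 0.16 and Porcn, which adds the lipid, at 0.05. Znrf3 (-0.24) and Rnf43 (-0.11), the ubiquitin ligases that R-spondins hold off, overlapped between the genotypes. Of 19 genes from Dishevelled to beta-catenin, Apc2 (0.64) and Csnk1d (0.28) had the smallest p, and Ctnnb1, which encodes beta-catenin, had 828.9 CPM in Hdac3 CKO and 695.5 CPM in wild type (0.25 ± 0.13, adjusted p of 0.397). Of 14 nuclear genes Tle2, a corepressor, stood at -0.77 ± 0.17 (adjusted p of 0.0637) and Pygo1 at -0.42. Of 11 planar polarity genes Ptk7, a co-receptor of that branch, stood at 0.62 ± 0.14 (adjusted p of 0.0814) and Prickle1 at 0.31. Of 10 tested feedback targets of beta-catenin, 6 had log2 fold changes above 0 and 4 below, and only Apcdd1, counted above, passed. Lgr5 (-1.27), described above, had the next smallest p and did not pass, nor did Notum (0.56), Nkd2 (0.39) and Tcf7 (-0.39). The widely used readout Axin2 averaged 19.2 CPM in Hdac3 CKO and 16.0 CPM in wild type (0.26 ± 0.15).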

How the data were processed

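Per the file headers, the authors deposited raw counts and RPKM for each gene and library. The submitters' processing notes name bcl2fastq 1.8.4, TopHat2 2.1.0, Subread, featureCounts and mm10. Not given in the sources used here are strand setting, annotation release and the treatment of multi-mapping reads. Exons of Fzd5, Fzd6, Rspo3, Wnt11, Wnt5a and Wnt7b overlap a gene on the opposite strand in GENCODE M21, so their counts may hold its reads. RPKM were used for levels between genes and for ratios within a library, besides 2 of the alternatives.

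Counts were filtered with filterByExpr, scaled by TMM and fitted with the quasi-likelihood test of edgeR 4.0.16 in R 4.3.3 (3 against 3, no covariate, robust, 4 residual degrees of freedom), with Benjamini-Hochberg adjustment over 20210 genes and a threshold of 0.05. Groups came from the genotype label, and replicates were numbered in record order. Full statistics went to members that passed and the 2 with the smallest p of each role. Of each pathway list, genes that passed and the 2 with the smallest p were named. Ctnnb1, Axin2, Dkk1, Dkk2 and the full values of Wnt5a and Wnt2b were added after their values were seen. The members and lists were chosen with earlier results of these data known, and so was the setting without replicate 3 of both genotypes. Alternatives included DESeq2 1.42.0 and limma 3.58.1, and the fit was tested on simulated data. RefSeq promoters were found for 22 of the 34 genes.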

Additional observations from a re-analysis of the deposited data

How the results depend on the processing

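Ror2 kept its direction in 19 of 19 alternatives and Wnt2 in 19 of 19, and the number of members that passed was 2 in edgeR. It was also 2 under each other scaling and count filter, in limma-voom and with the cartilage covariate. It was 4 in DESeq2 (with Lgr5 and Wnt10a added), 1 with the muscle covariate, where Wnt2 stood at -2.41, 1 with limma on log2(RPKM + 0.1), where Ror2 stood at 0.94, and 0 with limma on log2(RPKM + 1), where Ror2 stood at 0.82 and Wnt2 at -0.56. At an unadjusted p under 0.05, that last setting had 7 of 34 members and 3049 of 20210 genes. Leaving out 1 library gave 0 to 2 members, with Ror2 at 1.02 to 1.18 and Wnt2 at -2.69 to -2.22. Leaving out replicate 3 of both genotypes, the cartilage-rich libraries, gave 0 members and 0 of all genes in edgeR, with Ror2 at 1.20, Wnt2 at -2.54, 6 members and 2309 genes at an unadjusted p under 0.05. The number of libraries was also smaller there, and the causes were not tested.

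Over all genes 238 passed, against 828 in DESeq2, 157 in limma-voom, 5 and 124 with limma on RPKM at pseudocounts of 1 and 0.1, 155 and 135 with the cartilage and muscle covariates, and 23 to 175 without 1 library. Of the other pathway genes 3 passed, against 7 in DESeq2, 4 when low counts were kept, 0 and 1 with limma on RPKM at those pseudocounts, 1 to 4 without 1 library and 0 without replicate 3 of both genotypes. With library totals the median of all tested genes was -0.18, 14 in place of 19 of the 34 members were above 0, and 32.6% in place of 59.7% of calls were higher. With limma on RPKM, 4 of 5 calls and 33.1% of calls were higher at those pseudocounts, and with the muscle covariate 72.6%. Ror1 turned positive with the muscle covariate (0.089) and ranged between -0.14 and 0.11 with 1 library left out, while Lrp6 turned negative with library totals (-0.038) and without replicate 3 of both genotypes (-0.12). No member was tested for an outlying library, since groups of 3 are too small. Libraries with under 50 counts limit Wnt2, whose Hdac3 CKO libraries had 11 to 16, and also Wnt10a, Wnt6, Wnt7b, Rspo1 and Rspo4.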
